A study of Mus musculus with 26 samples.

Results

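The 8 genes described here, Gjb2, Gjb6, Gja1, Kcnj10, Kcnj16, Slc1a3, Slc12a2 and Car14, encode gap junction proteins and the channels, transporters and enzyme that cochlear supporting cells use to clear potassium and glutamate. They were chosen by name, with earlier results of these data known, from 48709 gene identifiers, and each matched 1 identifier. Shares of all genes are therefore printed beside their counts as description, not as a test. All samples were cells carrying a supporting cell reporter, sorted from cochleae of mice at postnatal day 1 after organ culture with DAPT or with DMSO, the vehicle. DAPT inhibits gamma-secretase, the protease that releases the active fragment of Notch receptors. At 24 h, cells positive for Lfng-GFP, in which GFP follows the supporting cell gene Lfng, gave 3 DMSO and 3 DAPT RNA libraries. At 48 h every sorted cell carried TdT, switched on by a Cre recombinase under Lfng (Lfng-CreER). TdT-only cells from DMSO cultures are called control (2 RNA libraries), TdT-only cells from DAPT cultures nonpermissive (3 RNA libraries), and DAPT-treated cells with TdT and Atoh1-GFP, a reporter of the hair cell gene Atoh1, permissive (3 RNA libraries). Open chromatin (ATAC) and the histone mark H3K27ac (CUT&RUN), which marks active promoters and enhancers, were measured at 48 h in 2 samples per group. The RNA kit differed between 24 h and 48 h, so time, sort and kit cannot be told apart, and no level was compared between both times. Whether replicates are separate animals is not in the labels; p-values therefore describe only how these libraries vary, which could be technical variation.

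Hair cells release potassium to the fluid around them when they respond to sound. Supporting cells take it up and pass it from cell to cell through gap junctions, channels built of connexins, towards the lateral wall, where it returns to the endolymph. Cx26, encoded by Gjb2, and Cx30, encoded by Gjb6, form most gap junctions of the cochlear epithelium, and mutations affecting these genes are linked to deafness. Inwardly rectifying channels and cotransporters move potassium across the supporting cell membrane, and the glutamate transporter of these cells removes transmitter at the inner hair cell.

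Depth ranged from 10666050 to 13158897 counts per RNA library at 24 h and from 2165338 to 4896374 at 48 h. Replicates were less alike at 48 h (Spearman correlation 0.858 to 0.89 across genes) than at 24 h (0.979 to 0.994). Atoh1 followed the sort: CPM values (read counts scaled to library size) were 635 to 1008 in permissive, 30.2 to 67.2 in nonpermissive and 2.28 to 3.55 in control libraries. Of 17 supporting cell markers, 12 fell in permissive against control cells and all 14 hair cell markers rose. The summed supporting cell markers were 18500 and 25300 CPM in control, 14900 to 24400 CPM in nonpermissive and 2520 to 25200 CPM in permissive libraries, and the summed hair cell markers 154 and 281, 315 to 372 and 6460 to 8280 CPM. S100a1 alone ran from 1051 to 23770 CPM in the permissive libraries and set most of the upper end of their sum, whereas Tecta, for example, was at 6717 ± 2592 CPM (SD, n = 2) in control and 169 ± 62.3 CPM (n = 3) in permissive libraries. At 24 h, 14 of 17 supporting cell markers fell and 1 rose with DAPT, and 12 of 14 hair cell markers rose and 0 fell. The summed supporting cell markers were 18300 to 19900 CPM in DMSO and 9300 to 11400 CPM in DAPT libraries. The summed hair cell markers were 2050 to 2480 CPM in DMSO and 5960 to 9760 CPM in DAPT libraries. These markers moved with the changes described next, and their part in them was not tested. Lfng, whose reporter set the 24 h sort, was itself at 835 to 1212 CPM in DMSO and 167 to 234 CPM in DAPT libraries. What this meant for the cells sorted from DAPT cultures was not tested. In sorted bulk samples, fewer cells of a type and less RNA per cell cannot be told apart.

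Of the 8 genes, 6 lost most of their RNA in permissive cells, and none passed the test in nonpermissive against control cells. "Rose" and "fell" mean an adjusted p under 0.05 in edgeR's quasi-likelihood test across all genes. In permissive against control cells Gjb2, Gjb6, Kcnj10, Kcnj16, Slc1a3 and Car14 fell, 6 of 8, and 0 rose, where 7.28% of the 13411 genes tested fell and 5.72% rose. The same 6 fell in permissive against nonpermissive cells, where 6.35% of all genes fell and 6.78% rose; both comparisons use the same permissive libraries. In nonpermissive against control cells 0 of 8 genes passed edgeR's test, against 0.194% of all genes in either direction (0.127% fell and 0.0671% rose); 1 of the 8, Gja1, had an unadjusted p under 0.05, and DESeq2 called 0. After 24 h of DAPT, 6 of 8 genes fell (Gjb2, Gjb6, Gja1, Kcnj10, Slc1a3 and Car14) and 0 rose, where 14.2% of 15174 genes fell and 11.5% rose (25.7% in either direction). In 7 of 8 genes every DAPT library lay below every DMSO library, as in 21.7% of all genes, and in 1, Slc12a2, above, as in 20.7%. The permissive libraries of the 6 genes that fell lay below every control library, as in 20.1% of all genes, and below every nonpermissive library, as in 14.7%. The median log2 fold change of the 8 genes was -0.93 at 24 h, -4.14 in permissive against control, -0.28 in nonpermissive against control and -3.95 in permissive against nonpermissive cells, beside 0.01, 0.06, 0.00 and -0.00 over all genes tested.

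**Figure D1:**
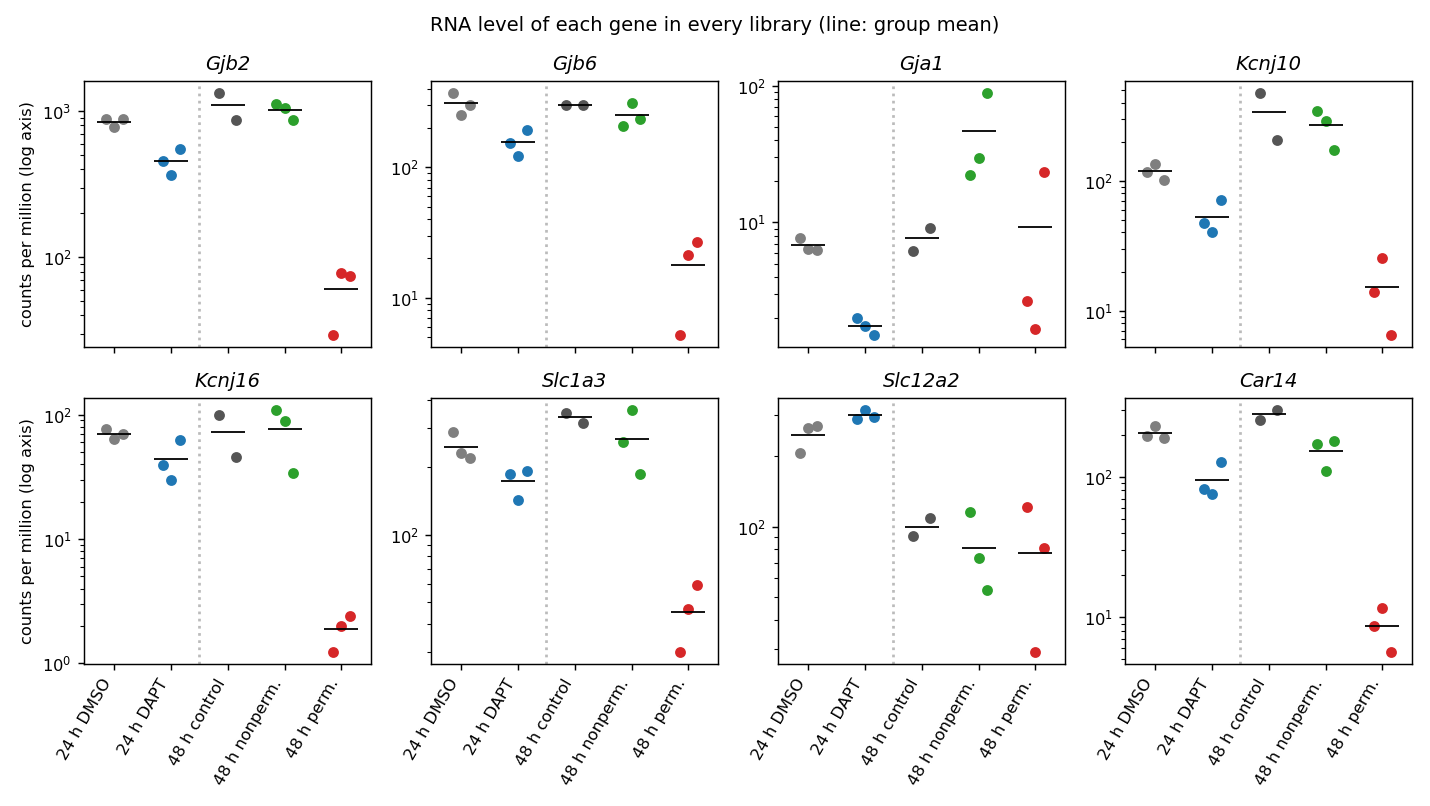
RNA level (CPM, log axis) of the 8 genes in each of the 14 libraries, by group; points are libraries, the short line is the group mean, and the dotted line parts 24 h from 48 h. In 6 panels the 3 permissive libraries lie below every control and nonpermissive library; in those of Gja1 and Slc12a2 they overlap with other groups.

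The connexin genes Gjb2 and Gjb6 fell together at both times. Gjb2 lies at chr14:57098602-57104702 and Gjb6 at chr14:57123301-57133611 (mm10), on the same strand and 18598 bases apart. At 24 h Gjb2 was at 879, 779 and 880 CPM in the DMSO libraries and at 457, 366 and 550 CPM in the DAPT libraries. Every DAPT library lay below every DMSO library, and the mean was 54.1% of the DMSO mean (log2 fold change -0.89 ± 0.14 SE, edgeR adjusted p = 0.0023). At 48 h Gjb2 was at 1332 and 876 CPM in control, 1117, 1049 and 876 CPM in nonpermissive and 29.3, 77.7 and 74.8 CPM in permissive libraries. Control and nonpermissive libraries overlapped, and all 3 permissive libraries were far below both. The fitted change of Gjb2 was -4.19 ± 0.50 (SE) against control, an 18.3-fold fall (edgeR adjusted p = 0.000176), and -4.07 ± 0.48 against nonpermissive cells (adjusted p = 0.000144).

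Gjb6 was at 371, 253 and 302 CPM in DMSO and at 153, 122 and 194 CPM in DAPT libraries at 24 h. It fell by 0.98 ± 0.19 (SE) on the log2 scale, with no overlap between both groups (edgeR adjusted p = 0.00522). At 48 h its libraries stood at 298 and 300.1 CPM in control, 207, 310.0 and 236 CPM in nonpermissive, and 5.16, 21.4 and 26.7 CPM in permissive cells. Gjb6 in permissive cells was thus at 5.94% of the control mean, beside 5.49% for Gjb2 (log2 fold change -4.09 ± 0.58 SE, edgeR adjusted p = 0.000525). Against nonpermissive cells it fell by 3.84 ± 0.56 on the log2 scale (adjusted p = 0.000584). In nonpermissive against control cells the 95% interval of the log2 change was -1.13 to 0.89 for Gjb2 and -1.42 to 0.92 for Gjb6. Changes within these intervals are not excluded, and the intervals do not measure what size of change the test could detect. Per transcript length (TPM), Gjb2 was 1.99 to 2.6 times as high as Gjb6 in the 24 h libraries of both treatments. This ratio was 2.24 and 3.84 in control, 2.91 to 4.64 in nonpermissive and 2.42 to 4.9 in permissive libraries, so its ranges overlapped between the groups of each time.

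Gja1 encodes Cx43, a connexin of many tissues including fibrocytes, glia and endothelium, and per length it was the lowest of the 3 connexin genes in all 5 groups. It lies at chr10:56377300-56390419. At 24 h it was at 7.73, 6.38 and 6.24 CPM in DMSO and 2.0, 1.74 and 1.5 CPM in DAPT libraries, without overlap. It fell by 1.95 ± 0.24 (SE, log2) at an edgeR adjusted p = 0.000516, the largest fall of the 8 genes at that time. At 48 h the control libraries held 6.17 and 9.13 CPM, the nonpermissive libraries 22.1, 29.7 and 88.0 CPM and the permissive libraries 2.68, 1.67 and 23.4 CPM. All nonpermissive libraries were above both controls, but the difference of 2.61 ± 1.03 (SE, log2) did not pass the test (edgeR adjusted p = 0.568, 0.0445 to 0.97 over the alternatives), where the libraries of 10.1% of all genes lay wholly above the controls. Permissive against nonpermissive cells differed by -2.36 ± 0.88 (adjusted p = 0.0989). With the replicate number as a block that difference passed (-2.89, adjusted p = 0.00326), as it did without permissive replicate 3 (-4.38, adjusted p = 0.00413), the one permissive library with a high value. No label says what a replicate number shares, and only replicate 1 clearly deviated together in nonpermissive and permissive cells. In permissive against control cells the value was 0.25 ± 0.97 and turned negative with the block (-1.35), without permissive replicate 3 (-1.77) or without control replicate 1 (-0.01). Endothelial markers were also higher in nonpermissive than in control libraries. The 8 endothelial markers, all with counts in control and nonpermissive cells, summed to 13.5 and 40.2 CPM in control, 99.4 to 248 CPM in nonpermissive and 43.5 to 127 CPM in permissive libraries, where Tek was at 0. Permissive replicate 3 had the highest sums of the permissive libraries for the endothelial markers (127 CPM) and for the 13 mesenchyme and fibrocyte markers (1290 CPM, beside 348 and 696 CPM). The latter summed to 980 and 3670 CPM in control and 2250 to 4740 CPM in nonpermissive libraries, with none at 0, so control replicate 2 lay above the lowest nonpermissive library. In nonpermissive against control cells 0 of the 12 tested rose and 0 fell, where 0.194% of all genes passed the test. The median log2 fold change of the 12 was -1.85. Lum was higher in nonpermissive (1488 ± 900.0 CPM, SD, n = 3) than in control libraries (289 ± 61.3 CPM, n = 2), and Col1a2 was lower on average (85.8 ± 75.7 against 718 ± 954 CPM), with overlapping libraries. The part of these markers in the Gja1 values was not tested.

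The inwardly rectifying potassium channels Kcnj10 and Kcnj16 fell in both permissive comparisons, and Kcnj10 also fell at 24 h. Kcnj10 (chr1:172341210-172374085) encodes Kir4.1, which lets supporting cells and glia take up potassium. At 24 h it was at 117, 136 and 102 CPM in DMSO and 47.2, 40.5 and 71.2 CPM in DAPT libraries, a fall of 1.16 ± 0.20 (SE) on the log2 scale without overlap (edgeR adjusted p = 0.00326). At 48 h it was at 473 and 207 CPM in control, 348, 287 and 174 CPM in nonpermissive and 14.0, 25.4 and 6.47 CPM in permissive libraries. Permissive cells kept 4.5% of the control mean (log2 fold change -4.47 ± 0.60, edgeR adjusted p = 0.000339) and 5.68% of the nonpermissive mean (-4.13 ± 0.57, adjusted p = 0.000428). Control and nonpermissive libraries overlapped, and the 95% interval of their difference was -1.52 to 0.85.

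Kcnj16 (chr11:110968033-111027968) encodes Kir5.1, which assembles with Kir4.1 into channels of altered conductance and pH sensitivity. At 24 h its libraries were at 76.3, 64.1 and 69.6 CPM in DMSO and 39.8, 29.9 and 63.1 CPM in DAPT. All DAPT libraries were lower, DAPT replicate 3 by little, and the difference of -0.66 ± 0.23 (SE, log2) did not pass the test (edgeR adjusted p = 0.0702, 0.000683 to 0.199 over the alternatives). Without DAPT replicate 3 it did (-1.01, adjusted p = 0.000683). At 48 h Kcnj16 was at 100.2 and 45.6 CPM in control, 110 and 88.5 CPM in nonpermissive replicates 1 and 2, and 34.2 CPM in nonpermissive replicate 3. The permissive libraries held 1.24, 2.0 and 2.43 CPM, from 6 counts in each library. This was the largest fitted fall of the 8 genes, though its interval overlaps those of the other 5 that fell except Slc1a3: -5.29 ± 0.67 (SE, log2) against control and -5.38 ± 0.65 against nonpermissive cells (edgeR adjusted p = 0.000246 and 0.000176). Per length, Kcnj10 was 2.98 and 3.11 times as high as Kcnj16 in control and 2.09 to 3.36 times in nonpermissive libraries. In permissive libraries the ratio was 7.46, 8.26 and 1.76, resting on those few counts. At 24 h it was 0.961 to 1.41 in DMSO and 0.749 to 0.9 in DAPT libraries, so all DAPT libraries were lower than all DMSO libraries.

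Slc1a3 and Slc12a2 encode transporters. Slc1a3 fell in permissive cells, and Slc12a2 did not pass the test in any comparison. Slc1a3 (chr15:8634124-8710807), the glial glutamate transporter GLAST, was at 287, 231 and 220 CPM in DMSO and 186, 142 and 192 CPM in DAPT libraries at 24 h. It fell by 0.50 ± 0.14 (SE) on the log2 scale without overlap (edgeR adjusted p = 0.0313). This call depended on single libraries: it was lost without DMSO replicate 1 (-0.38, adjusted p = 0.101) or 2 (-0.55, adjusted p = 0.0568) and without DAPT replicate 1 (-0.56, adjusted p = 0.0651) or 2 (-0.38, adjusted p = 0.088). At 48 h Slc1a3 was at 350 and 316 CPM in control, 258, 361 and 186 CPM in nonpermissive and 29.9, 46.5 and 59.4 CPM in permissive libraries. Permissive cells kept 13.6% of the control mean, the largest share among the 6 genes that fell (log2 fold change -2.88 ± 0.45, edgeR adjusted p = 0.000969), and 16.9% of the nonpermissive mean (-2.57 ± 0.42, adjusted p = 0.00133). Kcnj10 and Slc1a3 are also glial genes. The 11 Schwann and satellite glia markers summed to 886 and 1270 CPM in control, 871 to 1230 CPM in nonpermissive and 483 to 700 CPM in permissive libraries. Gfra3 was at 0 in control and nonpermissive and Mag at 0 in control and permissive libraries. Their part in the values of both genes was not tested.

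Slc12a2 encodes the sodium-potassium-chloride cotransporter NKCC1, which loads cells with potassium and chloride. It was the only one of the 8 genes whose DAPT libraries lay above DMSO at 24 h: 289, 316 and 294 CPM against 206, 263 and 268 CPM. The difference of 0.29 ± 0.11 (SE, log2) did not pass the test (edgeR adjusted p = 0.0992, 0.084 to 0.246 over the alternatives). At 48 h it was at 91.1 and 109 CPM in control, 115, 73.1 and 53.8 CPM in nonpermissive and 121, 29.1 and 81.3 CPM in permissive libraries. These ranges overlapped throughout. The difference between permissive and control cells was -0.37 ± 0.56 (adjusted p = 0.744), with a 95% interval of -1.56 to 0.82, so that interval does not reach the change fitted for any of the 6 genes that fell.

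Car14 (chr3:95897768-95905117) encodes a membrane-bound carbonic anhydrase, an enzyme that converts carbon dioxide and bicarbonate. At 24 h it was at 196, 231 and 190 CPM in DMSO and 82.3, 75.9 and 128 CPM in DAPT libraries, a fall of 1.11 ± 0.19 (SE) on the log2 scale without overlap (edgeR adjusted p = 0.00275). At 48 h it stood at 256 and 301 CPM in control, 171, 110 and 180 CPM in nonpermissive and 8.67, 11.7 and 5.66 CPM in permissive libraries. The 3 groups did not overlap. Permissive cells kept 3.12% of the control mean (log2 fold change -4.99 ± 0.48, edgeR adjusted p = 7.35e-05) and 5.66% of the nonpermissive mean (-4.13 ± 0.45, adjusted p = 0.000104). Nonpermissive libraries were all lower than the controls, as those of 10.4% of all genes were, and the difference of -0.86 ± 0.43 did not pass the test (adjusted p = 0.723).

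**Figure D2:**
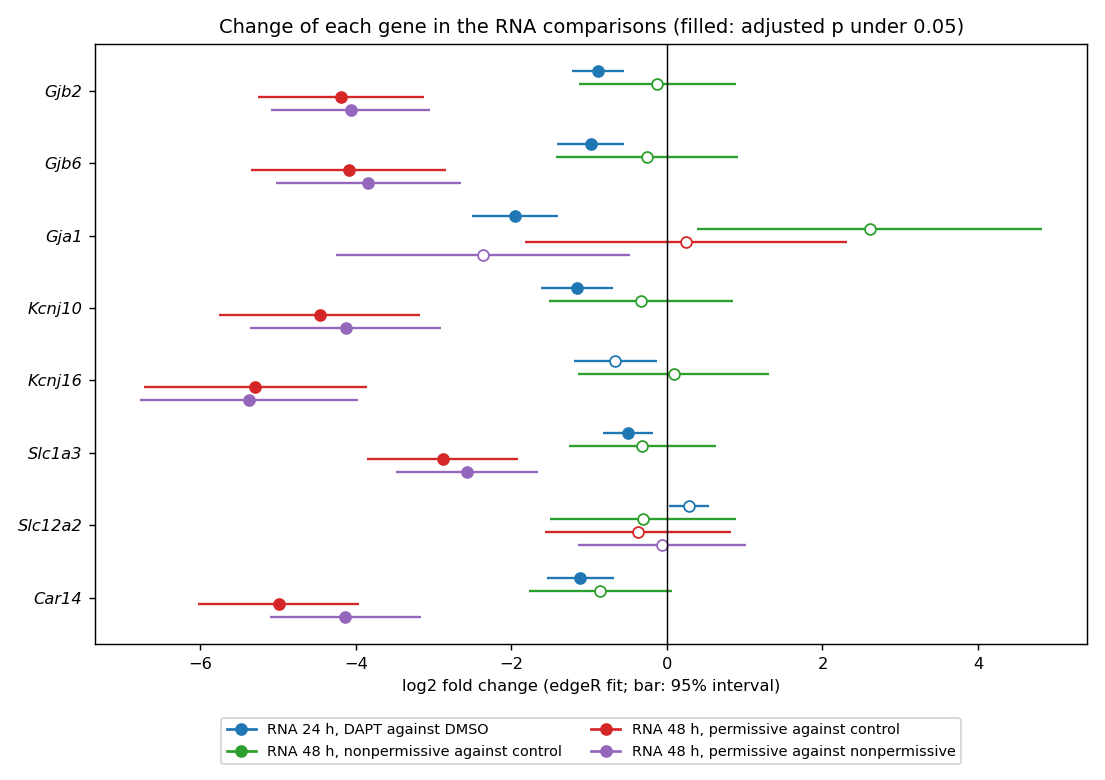
Log2 fold change of each gene (x axis) in the 4 RNA comparisons, with its 95% interval from the edgeR fit; filled points have an adjusted p under 0.05. The permissive comparisons lie between -2.57 and -5.38 for 6 genes, while every nonpermissive against control point is open.

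Ranked per length by mean TPM, Gjb2 was the highest of the 8 genes in all 5 groups, at 715 ± 41.0 (SD, n = 3) in DMSO, 382 ± 75.1 (n = 3) in DAPT, 918 ± 470 (n = 2) in control, 729 ± 325 (n = 3) in nonpermissive and 39.5 ± 9.46 (n = 3) in permissive libraries. In DMSO cells it was followed by Gjb6 (309 ± 56.5) and Car14 (265 ± 32.8), whose libraries overlapped, then Slc1a3 (143 ± 18.1), Slc12a2 (72.8 ± 10.8), and Kcnj10 (42.4 ± 6.66) and Kcnj16 (37.95 ± 2.85), which overlapped with each other, and Gja1 (4.36 ± 0.49). In control cells at 48 h the order was Gjb2, Car14, Gjb6, Slc1a3, Kcnj10, Kcnj16, Slc12a2, Gja1. Neighbours in it overlapped except Gjb2 and Car14, Gjb6 and Slc1a3, and Slc12a2 and Gja1. In permissive cells Slc12a2 (21.8 ± 18.5 TPM) stood in place 2 and Kcnj16 (0.83 ± 0.15 TPM) in the last, and every neighbouring pair overlapped except Kcnj10 and Kcnj16.

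For each gene the 2 genes most like it were found as those with the smallest root mean square difference of centred log2 CPM over the 8 libraries at 48 h, among 7288 genes. They were Cpxm2 (0.25) and Gsn (0.37) for Gjb2, BC006965 (0.26) and Otoa (0.36) for Gjb6, and Lamb1 (0.75) and Soat1 (0.76) for Gja1. Kcnj10 was nearest to Col4a4 (0.46) and Mpzl2 (0.50), Kcnj16 to Tecta (0.53) and Net1 (0.54), and Car14 to BC064078 (0.37) and Col4a4 (0.47). Slc1a3 was nearest to Fndc3b (0.26) and Nfe2l3 (0.33), and Slc12a2 to Rgp1 (0.21) and Dmxl1 (0.22). Tecta and Otoa encode proteins of the extracellular matrix over the sensory epithelium. Among the 8 genes the closest pair was Gjb2 and Gjb6, 0.34 apart, and Slc12a2 lay 1.35 to 2.3 from all others.

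Around the 8 genes, 7 lists held 116 further genes of the same functions. At 24 h, 73 of them were tested, of which 11 rose and 23 fell (median log2 fold change -0.18), where 11.5% of all genes rose and 14.2% fell; 0 of the 74 tested changed in nonpermissive against control cells by edgeR and 1 by DESeq2. In permissive against control cells 2 rose and 11 fell (median -0.51), where 5.72% of all genes rose and 7.28% fell. Against nonpermissive cells 3 rose and 13 fell (median -0.40), where 6.78% and 6.35% did. The counts of the single lists that follow are small, and several are near these shares of all genes. Over all 7 lists, the genes called in permissive against control cells numbered 7 without control replicate 1 or 2. Against nonpermissive cells they numbered 9 without nonpermissive replicate 1 or permissive replicate 2 and 8 without nonpermissive replicate 2. Of the other connexins and pannexins, 4 of 20 were tested at 24 h and 3 at 48 h. Gjc1, encoding the connexin Cx45, fell in 3 of the 4 comparisons: by 0.76 at 24 h, 2.71 against control and 2.31 against nonpermissive cells (log2, edgeR adjusted p = 0.00645, 0.0128 and 0.0214).

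Aqp4, the water channel of supporting cells and astrocytes, fell from 55.0 ± 10.8 CPM (SD, n = 3) in DMSO to 2.48 ± 1.03 CPM (n = 3) in DAPT libraries. At 48 h it was at 48.6 ± 32.0 CPM (n = 2) in control and 8.29 ± 7.65 CPM (n = 3) in nonpermissive cells, and it had 0 counts in all 3 permissive libraries. Against a floor of 3 counts per library, permissive cells were at least 51.4-fold below the control mean and at least 8.77-fold below the nonpermissive mean. These bounds hold for the means only. Libraries were at 25.96 and 71.25 CPM in control and ran from 3.84 to 17.13 CPM in nonpermissive cells. Dmd, the dystrophin gene, fell by 1.01 at 24 h and 3.2 in permissive against control cells, whereas Dtna, encoding its partner dystrobrevin, rose by 1.19 and 2.15 (log2; edgeR adjusted p = 0.000568, 0.00313, 5.64e-05 and 0.0252). In that list 2 of 7 rose and 3 fell at 24 h, and 1 of 8 rose and 2 fell in permissive against control cells.

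Of carbonic anhydrases and bicarbonate transporters, 1 of 15 rose and 6 fell at 24 h, 0 of 13 rose and 3 fell in permissive against control, and 0 rose and 5 fell against nonpermissive cells. Car2, the main cytosolic carbonic anhydrase, was at 79.2 ± 18.7 CPM (SD, n = 2) in control, 196 ± 93.5 CPM (n = 3) in nonpermissive and 17.5 ± 10.7 CPM (n = 3) in permissive libraries, and it fell by 2.2 and 3.5 in the permissive comparisons (log2, edgeR adjusted p = 0.0244 and 0.00137). At 24 h Car2 was the 1 gene of this list that rose, by 0.49 (adjusted p = 0.0211). The sodium bicarbonate cotransporter gene Slc4a4 fell by 1.45 at 24 h (adjusted p = 0.00468) and was left with 4 counts over the 3 permissive libraries. Of glutamate uptake and recycling genes, 3 of 9 rose and 1 fell at 24 h. Slc1a5, a neutral amino acid transporter of the same family as Slc1a3, rose by 1.44 at 24 h and by 4.5 in permissive against control cells, where Slc1a3 fell (log2, edgeR adjusted p = 0.00155 and 0.00293). Its relative Slc1a4 fell by 0.85 at 24 h (adjusted p = 0.000277).

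Of potassium and chloride channels and transporters, 2 of 15 rose and 5 fell at 24 h, and 0 of 16 changed in permissive against control cells by edgeR. Kcnj2, another inward rectifier and the only coding neighbour of Kcnj16 within 100 kb, fell by 1.73 at 24 h, and P2rx2, an ATP-gated channel, rose by 1.05 (log2, edgeR adjusted p = 0.00185 and 0.00223). The potassium chloride cotransporter gene Slc12a4 fell by 3.96 in permissive against nonpermissive cells (adjusted p = 0.011), where 1 of 16 fell. Of 7 sodium pump genes tested, 3 fell at 24 h and 2 in permissive against control cells; Atp1b2, a beta subunit, fell by 0.92 and 2.1 (log2, edgeR adjusted p = 0.00137 and 0.0423). Of cell junction scaffolds and claudins, 3 of 16 rose and 4 fell at 24 h and 0 of 17 rose and 3 fell in permissive against control cells. Marveld3, a tight junction membrane protein, fell by 0.58 and 1.53 (log2, edgeR adjusted p = 0.00373 and 0.0423).

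Markers of the remaining cell types were measured beside these genes. The 10 stria vascularis and melanocyte markers summed to at most 46.8 CPM in any library, with 6 to 8 of 10 holding counts in a group. The 10 spiral ganglion neuron markers summed to 79.3 and 136 CPM in control, 41.9 to 81.7 CPM in nonpermissive and 154 to 223 CPM in permissive libraries, and the 10 blood and macrophage markers to 136 and 438, 180 to 504 and 62.1 to 334 CPM. The 10 outer sulcus and ridge epithelium markers, other epithelial cells that hold gap junctions, summed to 1650 and 1680 CPM in control, 1150 to 1540 CPM in nonpermissive and 588 to 1010 CPM in permissive libraries, with Gsc at 0. Their part in the results was not tested.

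Chromatin at 48 h was compared as the presence of peaks, called per sample by the authors. Overlapping peaks of all samples of an assay were merged into regions, 361954 for ATAC and 232408 for H3K27ac, of which 357 and 315 lay within 100 kb of a gene described here. Near these genes 18 H3K27ac regions (5.71%) were in both control lists and in neither permissive list, against 1.73% of all regions. The reverse, both permissive lists and neither control list, held for 9 regions (2.86%, against 3.93%). For ATAC the counts were 13 (3.64%, against 2.44%) and 6 (1.68%, against 3.20%). With both nonpermissive lists in place of control, 23 H3K27ac regions (7.3%, against 2.36%) and 19 ATAC regions (5.32%, against 2.13%) were absent from both permissive lists. Peak names inside both nonpermissive H3K27ac lists carry the same replicate number, 2, although their peaks differ (93860 and 46161 peaks). Both were used as labelled, so a mislabelled list would touch every nonpermissive H3K27ac value given here. Between control and nonpermissive lists 3 regions of each assay were listed only in control (0.952% against 0.396% for H3K27ac, 0.84% against 1.37% for ATAC). Only in nonpermissive were 6 H3K27ac (1.9%, against 1.75%) and 11 ATAC regions (3.08%, against 1.14%). Present in both control and both nonpermissive lists and in neither permissive list were 11 H3K27ac (3.49%, against 0.772%) and 9 ATAC regions (2.52%, against 0.861%). In all 6 lists were 18 H3K27ac (5.71%, against 3.58%) and 39 ATAC regions (10.9%, against 6.85%). List length differed, from 86995 to 170918 peaks for ATAC and 46161 to 114533 for H3K27ac, and the permissive H3K27ac lists (72293 and 114533 peaks) were longer than the control lists (55268 and 57712 peaks). At a −log10 q of at least 10, 0 regions of either assay near the genes were in both control and neither permissive list. With a control or permissive list left out, which loosens the rule, the control-only counts ran from 22 to 51 for H3K27ac and from 13 to 65 for ATAC. The share of all regions under these settings is not given here, so these counts do not show whether the excess near the genes remains.

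**Figure D3:**
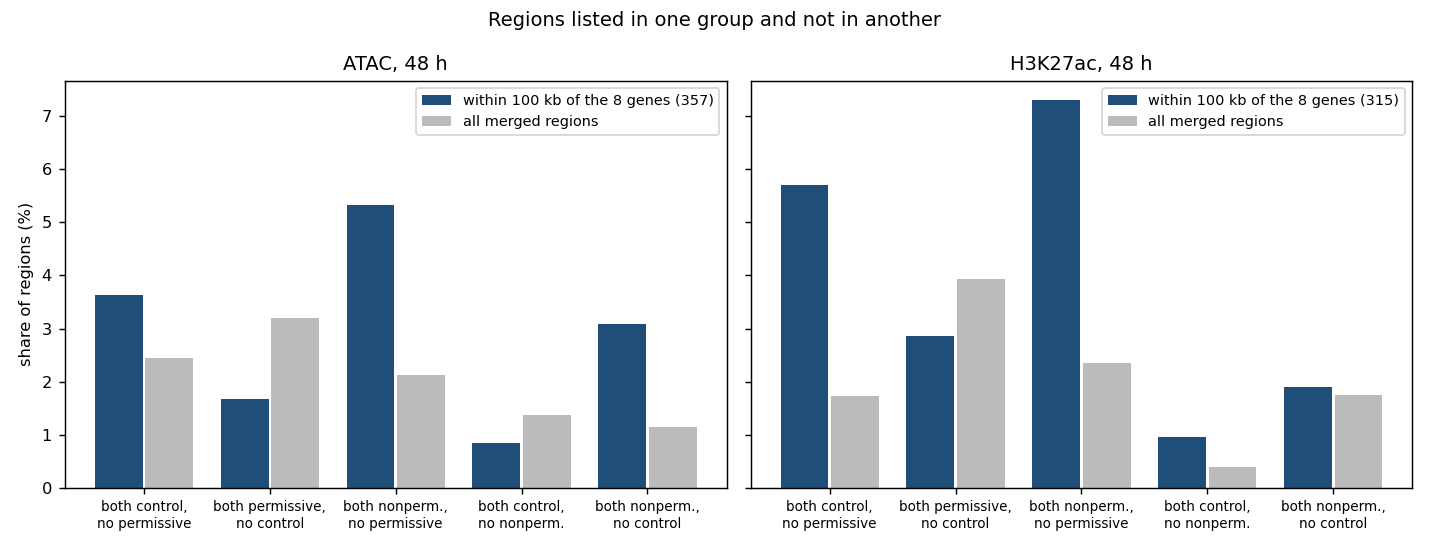
Share of merged regions (y axis, %) listed in both samples of one group and neither of another, for ATAC and H3K27ac at 48 h; dark bars are the regions within 100 kb of the 8 genes, grey bars all merged regions. Regions absent from both permissive lists are more frequent near the genes (5.71% and 7.3% for H3K27ac) than among all regions (1.73% and 2.36%). Regions in all 6 lists, not drawn, were also more frequent near the genes (5.71%, against 3.58%, for H3K27ac).

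Regions with H3K27ac in both control and neither permissive list made up 18.2% of those in the window of Gjb2 and 16.2% in that of Gjb6, the highest shares of the 8 genes. With nonpermissive in place of control, Kcnj16 had the highest share (7 of 37, 18.9%). Within their overlapping windows 6 regions were listed in both control and neither permissive list, 5 of them also in both nonpermissive lists, and 0 were listed only in permissive cells. The region of 1333 bases at the Gjb6 start (chr14:57132904-57134236) was among them; there the authors' fold enrichment was 5.33 and 6.69 in control and 4.14 and 5.22 in nonpermissive lists. Another 2 lay inside Gjb6 (chr14:57129832-57132439 and chr14:57127094-57128696), 1 inside Gjb2 (chr14:57100711-57102755) and 1 between both genes (chr14:57109058-57110189), 4356 bases upstream of the Gjb2 start. The last lay 33332 bases past that start. By contrast the H3K27ac region at the Gjb2 start (chr14:57102876-57105103) was in all 6 lists, with folds of 3.04 to 8.48, and ATAC peaks covered the starts of both genes in all 6 lists. The upstream sequences of both genes, with those of Kcnj10 and Slc1a3, are shown because an ATAC peak covers their start in at least 5 of 6 lists while their RNA fell together in permissive cells.

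The 250 bases before each start (RefSeq, GRCm38.p6, gene strand, 5′ to 3′) are at chr14:57104703-57104952 for Gjb2, chr14:57133612-57133861 for Gjb6, chr1:172340960-172341209 for Kcnj10 and chr15:8710808-8711057 for Slc1a3. Capitals mark matches on either strand to the GC box GGGCGG and to the E-box CANNTG, the motif of basic helix-loop-helix factors such as ATOH1.
Gjb2: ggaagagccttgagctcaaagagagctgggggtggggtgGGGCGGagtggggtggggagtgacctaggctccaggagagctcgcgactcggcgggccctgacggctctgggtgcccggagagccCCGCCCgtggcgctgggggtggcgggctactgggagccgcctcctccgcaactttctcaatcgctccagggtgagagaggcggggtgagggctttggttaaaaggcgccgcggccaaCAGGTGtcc
Gjb6: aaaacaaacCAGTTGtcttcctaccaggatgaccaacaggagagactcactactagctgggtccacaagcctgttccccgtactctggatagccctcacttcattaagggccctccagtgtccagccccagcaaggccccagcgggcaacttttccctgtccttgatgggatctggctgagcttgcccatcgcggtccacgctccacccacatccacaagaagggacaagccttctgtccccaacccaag
Kcnj10: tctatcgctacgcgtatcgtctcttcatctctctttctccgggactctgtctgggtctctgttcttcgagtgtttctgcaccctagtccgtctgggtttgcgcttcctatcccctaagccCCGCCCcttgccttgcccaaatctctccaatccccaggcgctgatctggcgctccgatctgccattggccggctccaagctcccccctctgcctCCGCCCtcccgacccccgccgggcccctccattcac
Slc1a3: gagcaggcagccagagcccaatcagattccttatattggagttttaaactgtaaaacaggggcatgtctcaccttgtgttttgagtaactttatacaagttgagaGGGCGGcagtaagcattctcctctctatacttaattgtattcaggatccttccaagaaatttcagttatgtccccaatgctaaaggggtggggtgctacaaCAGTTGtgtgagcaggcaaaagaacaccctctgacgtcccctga
Gjb2 and Kcnj10 each held 2 GC boxes, Slc1a3 1 and Gjb6 0, where 32.7% of 32851 RefSeq promoters of this length hold one. An E-box was found in Gjb2, Gjb6 and Slc1a3, as in 66.2% of promoters. The Notch effector motif RBPJ core, TGGGAA, was in none of the 4, and in 21.6% of all promoters. No marked match overlapped another. A match describes these letters and is no evidence of binding.

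**Figure D4:**
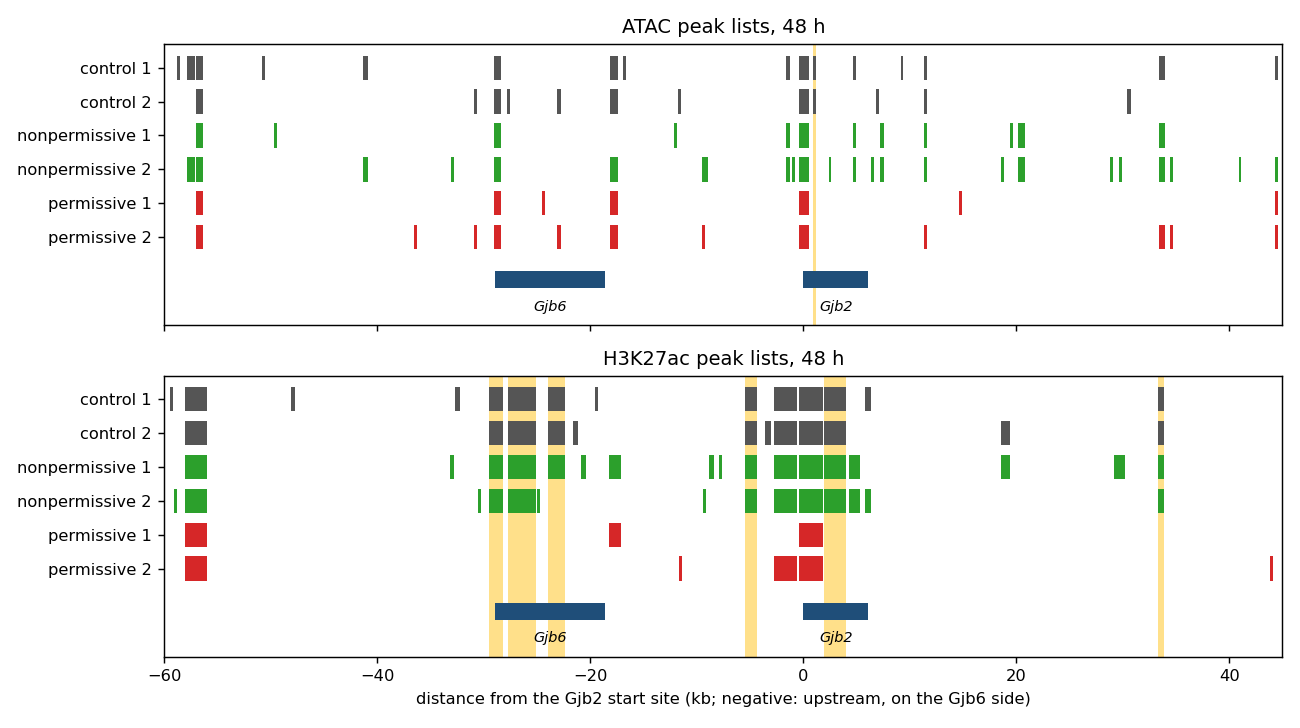
Peaks listed around Gjb2 and Gjb6 at 48 h by distance from the Gjb2 start (x axis, kb; negative is upstream), for ATAC (top) and H3K27ac (bottom) in 2 control, 2 nonpermissive and 2 permissive lists. Blue bars are the genes and yellow marks regions in both control and neither permissive list: 6 for H3K27ac and 1 for ATAC.

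At Kcnj10, 5 ATAC and 3 H3K27ac regions were listed in both control and neither permissive list (7.14% and 6.82% of those in its window). The start was covered in all 6 lists by ATAC (authors' fold 3.59 to 11.2) and by H3K27ac (2.98 to 7.18). Inside the gene, 1320 bases past the start, an ATAC region (chr1:172342530-172343146) and the H3K27ac region over it (chr1:172342407-172343929) were both in all control and nonpermissive lists and in neither permissive list. The annotation used gives gene spans only, so exon and intron were not assigned. At Kcnj16 the same pattern held in both assays 8487 bases before the first start, at chr11:110958817-110959546 (ATAC) and chr11:110958579-110960525 (H3K27ac, fold 6.17 to 20.1). Another H3K27ac region with that pattern covered the last of its 4 annotated starts (chr11:111021823-111024619), and none of the 4 lay under an ATAC peak in any list. At Car14 an ATAC region (chr3:95905093-95905726) at the upstream end of the gene was in all control and nonpermissive lists, with folds of 2.69 to 7.55, and in neither permissive list. Over the annotated start, 408 bases from that region, an ATAC peak was in both nonpermissive lists and permissive replicate 2 and in neither control list. H3K27ac over it was in control replicate 2 and both nonpermissive lists. Car14 also had 7 of the 9 H3K27ac regions listed in both permissive and neither control list, and Slc1a3 had 2. At Car14 these were 7 of 36 regions (19.4%, against 3.93% of all regions), in a window with 9 other coding genes.

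At Slc1a3 the H3K27ac region over the start was in all 6 lists (fold 2.39 to 10.9), and the ATAC peak was missing in permissive replicate 1, the shortest ATAC list. In all, 2 ATAC regions inside the gene (chr15:8697888-8698369 and chr15:8687615-8687985) and 3 H3K27ac regions in its window were listed in both control and neither permissive list. At Gja1 the H3K27ac region at the start was in both control lists and nonpermissive replicate 1, and the ATAC region in both nonpermissive lists and permissive replicate 2. In the window of Slc12a2 3 of 50 ATAC and 1 of 89 H3K27ac regions were listed in both control and neither permissive list. Other coding genes within 100 kb numbered 21 in all. Of 14 tested at 24 h, 3 rose and 5 fell, where 11.5% of all genes rose and 14.2% fell. Of 13 tested in permissive against control cells, 1 rose and 2 fell (median log2 fold change 0.80). Over all genes 5.72% rose and 7.28% fell in that comparison (median 0.06). The neighbours called in it are named after their values were seen. Plekho1 rose by 2.25 and Ciart fell by 3.53, both near Car14, and Fbn2, near Slc12a2, fell by 3.87 (edgeR adjusted p = 0.0138, 0.00674 and 0.000233).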

How the data were processed

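RNA values are expected counts and TPM per gene, 1 table per sample, deposited by the authors. Expected counts were rounded, filtered with filterByExpr, scaled by TMM and tested with edgeR 4.0.16 (quasi-likelihood, two-sided, R 4.3.3), in 1 fit of 6 libraries at 24 h and 1 of 8 at 48 h; adjusted p is Benjamini-Hochberg over all genes tested and CPM is TMM-scaled. TPM was used to compare levels between genes. Per the submitters' processing notes, STAR, RSEM, DESeq2, Bowtie2, MACS2 and UMI-tools were used on mm10, with no versions given in the sources used here. The deposited peak lists, 1 per sample, hold a fold enrichment (a ratio to background) and a −log10 q-value per peak; these are the authors' values. Of 48709 identifiers, 48349 (99.3%) matched a symbol; at most 0.0676% of a library's counts had none. Peaks sharing at least 1 base were merged, on the main chromosomes only. Gene spans, starts and promoters are RefSeq (GRCm38.p6); 7 of the 8 genes were in the promoter table. Same-numbered nonpermissive and permissive libraries deviated together in replicate 1 (r 0.537 over 9497 genes) and little in replicates 2 and 3 (0.132 and 0.114). Unlike numbers of these groups reached 0.17, for nonpermissive replicate 3 with permissive replicate 2, so only replicate 1 stood apart between them. With control libraries, same numbers ran from -0.00877 to 0.476 and unlike numbers reached 0.353. Deviations of the 2 control libraries mirror each other, so these values are not independent. The main fits used no pairing. Numbers were read as pairs only in the alternative with the replicate block, with no label for what a number shares. The blocked value is printed where it changes a call. Named genes were all 8, up to 3 per list and comparison with the smallest adjusted p, and the 2 genes most like each; 1 gene that this rule names is not reported here. The members and lists were chosen with earlier results of these data known. Alternatives were RLE factors, DESeq2 1.42.0, no filter, the replicate block, each library left out and, for peaks, a stricter q, a window of 50 kb, 500 bases around summits and, chosen after seeing the data, lists of equal length. The fit and the peak merging were tested on simulated data. Counting intervals and floors cover counting error only.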

Additional observations from a re-analysis of the deposited data

Results flagged for a closer look

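Gja1 lay on opposite sides of its controls in the 24 h DAPT and the 48 h nonpermissive libraries. At 24 h every DAPT library lay below every DMSO library (log2 fold change -1.95), and at 48 h every nonpermissive library lay above both controls (2.61), a difference that did not pass edgeR's test (adjusted p = 0.568). Of the 3 permissive libraries, also treated with DAPT, 2 lay below both controls (2.68 and 1.67 CPM) and 1 above (23.4 CPM). The difference between both times was not tested, since the 24 h and 48 h libraries also differ in sort and kit.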

How the results depend on the processing

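The falls of Gjb2, Gjb6, Kcnj10, Kcnj16, Slc1a3 and Car14 in both permissive comparisons kept their direction and passed under all 13 alternatives, with the smallest fitted change -2.3 (Slc1a3 against nonpermissive cells). At 24 h the falls of Gjb2, Gjb6, Gja1, Kcnj10 and Car14 passed under all 10. Kcnj16 at 24 h passed with no filter (-0.66), DESeq2 (-0.66), without DAPT replicate 3 (-1.01) and with the replicate block (-0.72); same-numbered 24 h libraries did not deviate together (r -0.0257 to -0.0658), so the number marks no known pair there. The block changed no other call than those given for Gja1 and Kcnj16. Values that did not pass changed sign: in nonpermissive against control cells Gjb2 without control replicate 1 (0.21), Kcnj10 with the block (0.042) or without control replicate 1 (0.38), and Kcnj16 without control replicate 2 (-0.43) or nonpermissive replicate 1 (-0.26) or 2 (-0.017), over leave-one-out ranges of -0.46 to 0.21, -0.87 to 0.38 and -0.43 to 0.76; Gja1 in permissive against control (block -1.35, without control replicate 1 -0.01, without permissive replicate 3 -1.77, range -1.77 to 0.75); Slc12a2 without permissive replicate 2 (0.024 against control, 0.33 against nonpermissive) or nonpermissive replicate 1 (0.28), over ranges of -0.88 to 0.024 and -0.57 to 0.33.

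Genes called with libraries left out ranged from 2573 to 4948 at 24 h, 1066 to 1738 in permissive against control and 2 to 40 in nonpermissive against control cells (26 as reported; 302 without the filter, 155 by DESeq2, 49 with only both groups compared). Without the filter 1 of the 8 genes (Gja1) and 5 listed pathway genes passed in that comparison, and DESeq2 called 1 pathway gene. Pathway genes called with libraries left out were 7 to 13 in permissive against control and 8 to 16 against nonpermissive cells. Lone control libraries were assumed to vary like the other groups. Listed only in control, ATAC regions numbered 13 to 65 with a list left out, 0 at −log10 q of at least 10 and 20 in lists of 80000 peaks; H3K27ac regions 22 to 51 and 0. Listed only in permissive, ATAC regions numbered 6 to 66 with a list left out, 2 at that q and 2 within 50 kb; H3K27ac regions 11 to 86, 0 and 3. These region counts are given without the share of all regions under the same settings. The cause was not tested, beyond that a stricter q or shorter window leaves fewer regions and a left-out list loosens the rule.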
